A study of Mus musculus with 6 samples.

Results

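The genes described here are those of the proteins of the cytosolic ribosome, chosen by name. Rows of the deposited gene table were taken where the name was Rps or Rpl with a number (optionally ending in a, x, l, l1 or al), Rplp0, Rplp1, Rplp2 or Rpsa. This gave 87 genes of 55401 in the table, 54 of the large subunit (Rpl, Rplp) and 33 of the small subunit (Rps, Rpsa). Of these, 83 are annotated as protein-coding and 4 as pseudogenes (Rps4l, Rps12l1, Rpl32l and Rpl6l). Setting aside Rpl22l1, Rpl3l, Rpl7l1, Rpl10l, Rpl36al, Rpl39l and Rps27l, each a paralogue copy of a parent gene, leaves 76 protein-coding genes, parents included. The name rule misses some genes of the same ribosome, among them Rps3a1, Fau and Rack1, whose values are given further down.

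RNA came from bone marrow cells of 6 mice, all of them secondary recipients of HoxA9/Meis1 leukaemia, and every mouse gave 1 library. The group called Lym holds lymphoid leukaemic cells (Lym+ in the labels) of mice 62, 63 and 87, which had been transplanted with lymphoid leukaemic stem cells. The group called Lin- holds Lin-cKit+ progenitor cells of mice 56, 57 and 91, which had been transplanted with Lin- leukaemic stem cells. No healthy or untransplanted marrow is in these groups, and neither the donor leukaemia nor the age of a mouse is used here, so p-values measure the spread between these mice only. Where values of 3 libraries follow each other below, they stand in the order of mice 62, 63, 87 for Lym and 56, 57, 91 for Lin-. Lym mouse 62 was prepared from 1 ng of RNA and the other 5 from 2 ng. Reads assigned to genes came to between 18537700 and 22634286 per library. The comparison asks whether ribosomal protein mRNA levels differ between Lym and Lin- cells of this leukaemia.

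The cytosolic ribosome is built from ribosomal RNA and one copy of nearly every ribosomal protein, so cells make these proteins in matched amounts. Their mRNAs are among the most abundant of a growing cell, begin with a run of pyrimidines (the 5′ terminal oligopyrimidine tract) through which mTOR signalling sets their translation, and are spread over many chromosomes with many processed pseudogene copies. In blood formation, loss of one copy of several of these genes causes red cell failure (Diamond-Blackfan anaemia), and free Rpl5 and Rpl11 restrain Mdm2 and so stabilise p53. A few members have a paralogue with a tissue-restricted pattern, such as Rpl3l in striated muscle and Rpl10l and Rpl39l in testis.

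3 paralogue pairs are shown first, because Rpl3l and Rps27l varied most between libraries among the protein-coding members tested, because Rpl22, the parent of Rpl22l1, is needed for T cell development, and because reads of 38 bases must tell each one from its parent. Each line gives 60 coding bases of the principal GENCODE M21 transcript (GRCm38, sense strand, counted from the A of the start codon), and capitals mark the bases at which the 2 genes differ. Rpl22l1 (chromosome 3, 28805436 to 28807424) is shown from coding base 22 to 81 and Rpl22 (chromosome 4, 152325742 to 152334071) from 37 to 96. The other pairs are shown from base 1 to 60: Rpl3l (chromosome 17, 24727820 to 24736143) with Rpl3 (chromosome 15, 80077791 to 80091868), and Rps27l (chromosome 9, 66946086 to 66949516) with Rps27 (chromosome 3, 90212522 to 90213651).
Rpl22l1: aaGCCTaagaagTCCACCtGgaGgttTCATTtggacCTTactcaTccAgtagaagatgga
Rpl22: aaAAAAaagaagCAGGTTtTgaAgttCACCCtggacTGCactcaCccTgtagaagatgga
Rpl3l: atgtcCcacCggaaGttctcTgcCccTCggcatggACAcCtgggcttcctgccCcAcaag
Rpl3: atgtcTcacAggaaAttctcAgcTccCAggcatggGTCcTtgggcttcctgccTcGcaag
Rps27l: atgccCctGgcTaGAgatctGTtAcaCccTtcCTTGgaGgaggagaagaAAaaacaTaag
Rps27: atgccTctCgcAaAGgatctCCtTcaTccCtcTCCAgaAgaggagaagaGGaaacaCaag
These stretches differ at 22, 13 and 18 of 60 bases. Over the whole aligned coding sequence, Rpl22l1 was 70.2% identical to Rpl22, Rpl3l 74.2% to Rpl3 and Rps27l 76.1% to Rps27. The longest identical runs were 26, 22 and 11 bases, all shorter than a read. No 38-base word of the Rpl3l transcript occurred in any other annotated gene. For the members as a whole the overlap with other genes was wide. Words were matched on either strand, which includes genes overlapping on the opposite strand, and the mate of a read was not used. A median of 57.9% of a member transcript's 38-base words, and of 95.2% of its coding words, also occurred in another gene, mostly pseudogenes. Of the 87 members, 53 shared over 50% of their words. The notes on the study's processing do not give how such reads were counted or whether strand was used, so levels of members with many shared words are uncertain.

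Summed over the 87 genes, ribosomal protein mRNAs made up 2.56%, 2.62% and 2.84% of all assigned reads in Lym, and 3.38%, 2.69% and 2.75% in Lin-. The library of Lin- mouse 56 stood highest, the other 5 lay close together, and the groups overlapped. In reads per 1000000 assigned reads (CPM) the means were 26761 ± 1487 (SD, n = 3) in Lym and 29419 ± 3839 (SD, n = 3) in Lin-, a ratio of 0.910. Without Lin- mouse 56 that ratio was 0.984. In bulk samples, fewer cells of a type and less RNA per cell cannot be told apart.

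**Figure D1:**
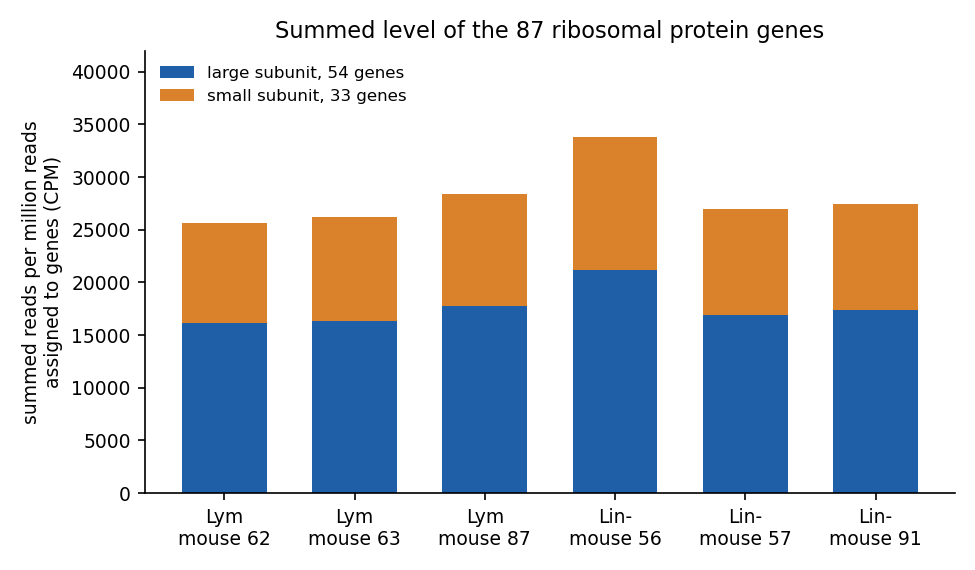
Summed reads per 1000000 assigned reads (y axis, CPM) of the 54 large-subunit genes (blue) and the 33 small-subunit genes (orange) in each library (x axis). The bar of Lin- mouse 56 reaches 33842 CPM and the other 5 lie between 25637 and 28447 CPM.

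Large and small subunit genes kept nearly the same proportion in every library. The large-subunit sum was 1.69, 1.65 and 1.66 times the small-subunit sum in Lym, and 1.67, 1.68 and 1.73 times in Lin-. Large-subunit genes held 62.3% to 63.3% of the members' reads, and the group ranges of the ratio overlapped. The mean Lym sum was 0.905 of the mean Lin- sum for the large subunit and 0.917 for the small subunit, with overlapping groups in both.

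Across single genes the same library stood out. Among the 76 protein-coding genes other than the paralogue copies, Lin- mouse 56 had the highest normalized count in 60 and the lowest in 0. Lym mouse 62 had the lowest in 30 and Lym mouse 63 in 20. Values of single genes here and below are normalized counts, a gene's reads divided by 1 size factor per library. The median deviation from a gene's mean over the 6 libraries, on the scale of log2(normalized count + 2), was -0.09, -0.09 and 0.03 in Lym, and 0.21, -0.07 and -0.02 in Lin-. Lin- mouse 56 also had the smallest share of reads on the 37 mitochondrially encoded genes, 4.70%, against 6.86% to 10.0% in the other 5 libraries. Per 1000000 reads outside those genes, its summed member level was still the highest, 35511 against 28017 to 30542.

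**Figure D2:**
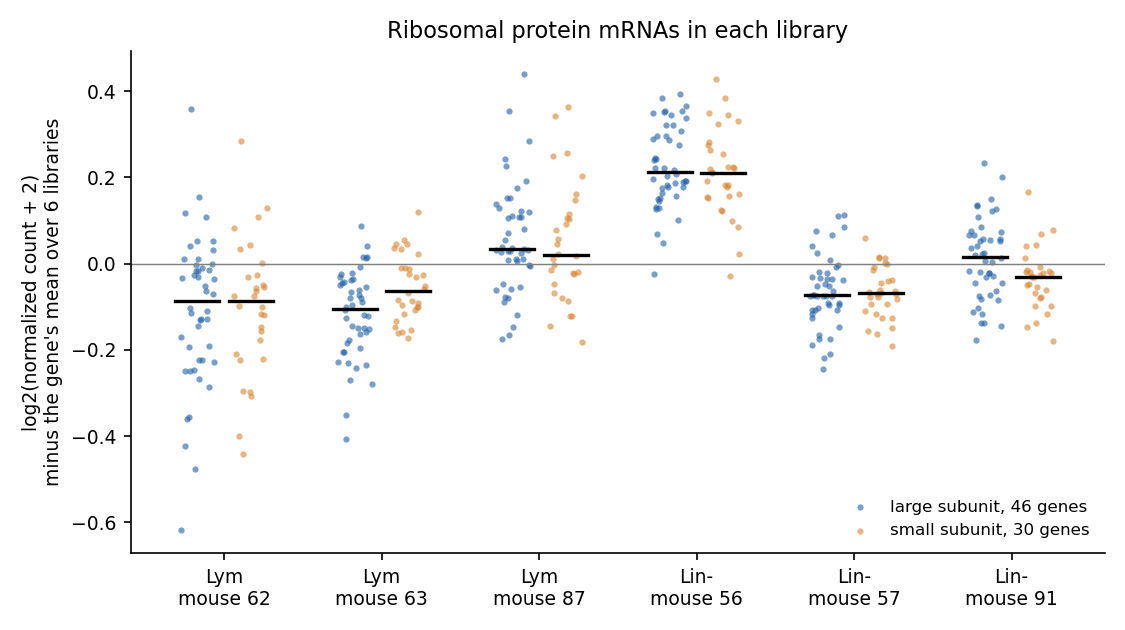
Each point is 1 of the 76 protein-coding ribosomal protein genes other than the paralogue copies, as log2(normalized count + 2) minus the mean of that gene over the 6 libraries (y axis), by library (x axis) and subunit (blue large, orange small), and black bars are medians. Both subunits sit near 0.21 in Lin- mouse 56 and between -0.11 and 0.03 in the other 5 libraries.

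The members varied little beside other genes. The coefficient of variation over the 6 libraries had a median of 10.8% for the 76 genes, from 2.45% to 26.8%, against 22.5% for all genes tested and 13.2% for other genes with a mean normalized count of at least 1000. The highest library exceeded the lowest by a median factor of 1.33 for the 76 genes and of 1.42 for those other abundant genes. These are descriptions of 6 libraries, and abundant genes have less counting error than scarce ones.

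Gene by gene, no member passed the test for a difference between Lym and Lin-. Differences were tested with limma on log2(normalized count + 2) over the 14273 genes that reached 10 normalized counts in 3 or more libraries, and a call needed a Benjamini-Hochberg adjusted p under 0.05. Of the 87 members, 83 passed the filter, and 0 were called, where 0.0% of all genes tested were called. At an unadjusted p under 0.05 the count was also 0 of 83, against 10.2% of all genes tested. edgeR's quasi-likelihood test on the recovered reads also called 0 members, against 0.0% of all genes, and gave 0 with an unadjusted p under 0.05, against 10.1%. DESeq2 called 0, against 1.39%, and gave 0 with an unadjusted p under 0.05, against 5.92%. With library weights limma called 0, against 4.62%, and gave 1 member higher and 9 lower at an unadjusted p under 0.05, against 26.3% in either direction. In the authors' deposited table no member had an adjusted p under 0.05, against 0.32% of its genes. The lowest adjusted p of a member in limma was 0.525, for Rplp1.

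Most members had slightly lower estimates in Lym, an estimate being the log2 fold change, Lym minus Lin-. Of the 83 tested, 68 had an estimate below 0, against 51.3% of all genes tested, and 15 above. The median was -0.09, with -0.11 for the 52 tested large-subunit genes, -0.08 for the 31 tested small-subunit genes and -0.01 for all genes. Estimates of 78 members lay within 0.3 of 0, and only Rpl3l lay beyond 1 among the 83. The median standard error was 0.14, larger than the median change. The lean toward Lin- rested on 1 library: without Lin- mouse 56, 43 of 83 members were below 0 and 40 above, against 51.8% of all genes below 0, and the median was -0.001. Without Lin- mouse 57 the split was 80 to 3, with a median of -0.15.

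**Figure D3:**
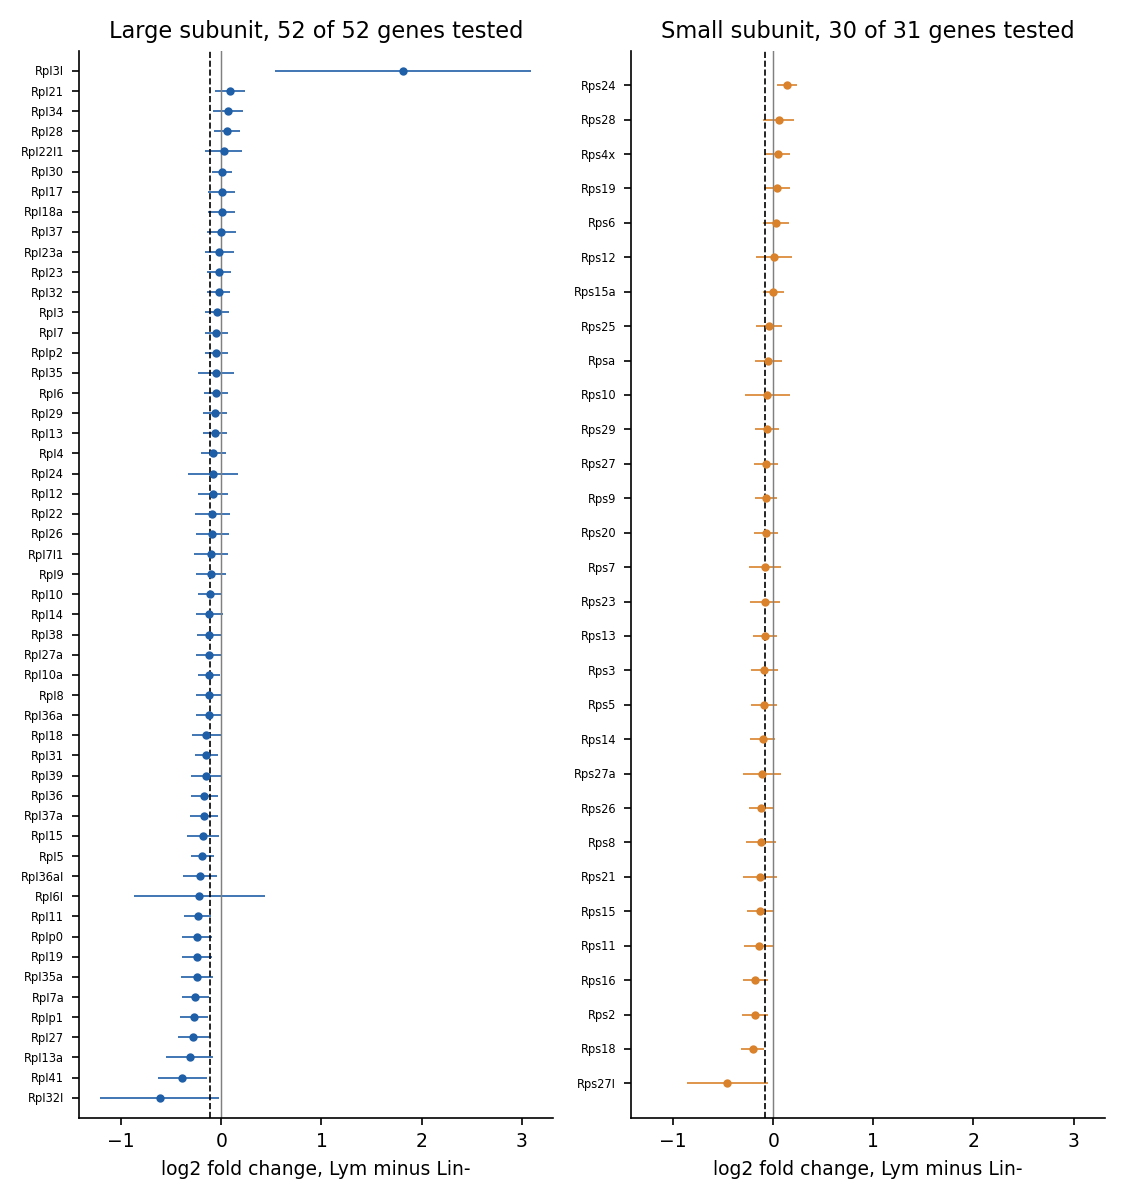
Log2 fold change, Lym minus Lin- (x axis), with its standard error for the 52 large-subunit genes (left, blue) and 30 of the 31 small-subunit genes (right, orange) tested by limma, ordered by value. The dashed lines mark the medians of -0.11 and -0.08 over all genes tested, and apart from Rpl3l at 1.81 all estimates lie between -0.62 and 0.14.

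**Figure D4:**
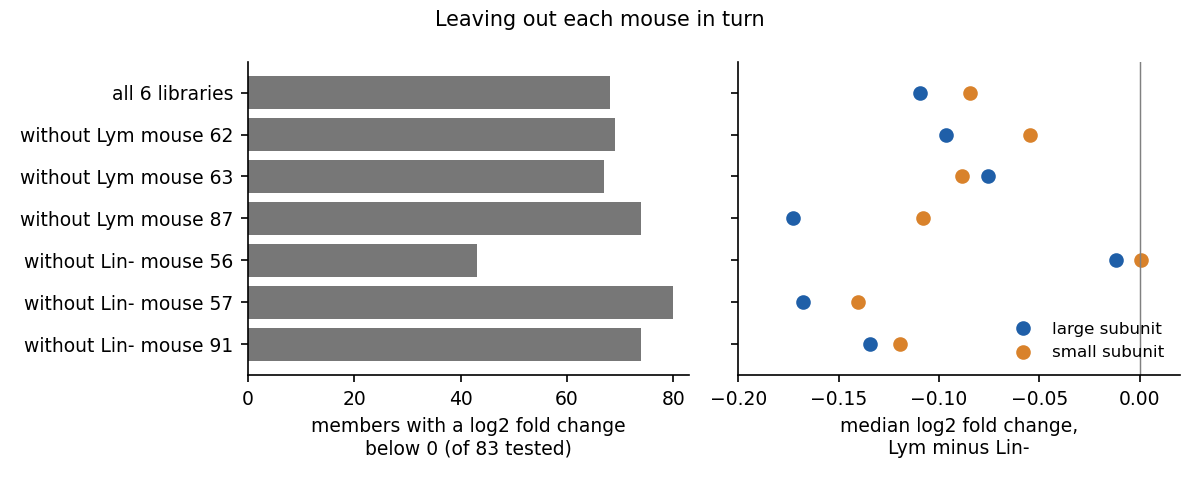
Number of the 83 tested members with a log2 fold change below 0 (left, x axis) and the median log2 fold change of large (blue) and small (orange) subunit genes (right, x axis), with all 6 libraries and with each mouse left out (y axis). Without Lin- mouse 56 the number below 0 falls from 68 to 43 and both medians lie next to 0.

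The ribosomal stalk recruits elongation factors and is formed by Rplp0 with Rplp1 and Rplp2. Rplp1 (chromosome 9, 61913284 to 61914542) stood at 10974, 12068 and 13668 in Lym, against 17074, 12910 and 14423 in Lin-. The Lym values lay mostly below, and Lym mouse 87 lay between Lin- mice 57 and 91. Its log2 fold change of -0.27 ± 0.14 (SE) had an adjusted p of 0.525 by limma. Rplp0, the scaffold of the stalk, had 17360, 21678 and 22669 in Lym and 27262, 21430 and 24176 in Lin-, which overlapped, with a log2 fold change of -0.24. Rplp2 had 22022, 22752 and 21586 in Lym and 25435, 20886 and 22575 in Lin-, with an estimate of -0.05. The 2 acidic partners Rplp1 and Rplp2 thus had different estimates, but the difference between them was not tested.

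Rpl5 and Rpl11 bind 5S ribosomal RNA together and are the members through which ribosome stress reaches Mdm2. Rpl5 stood at 5784, 5767 and 6443 in Lym, against 7583, 6700 and 6271 in Lin-. Only Lym mouse 87 reached into the Lin- range. Rpl11 had 2450, 2473 and 3186 in Lym and 3223, 3093 and 3179 in Lin-, so Lym mice 62 and 63 were the low libraries and Lym mouse 87 lay among Lin-. The log2 fold changes were -0.19 ± 0.12 and -0.24 ± 0.13 (SE), with adjusted p-values of 0.580 and 0.547 by limma. Rpl10, which is fitted late in assembly and is recurrently mutated in T-cell leukaemia, had 6935, 6636 and 6649 in Lym and 8286, 6789 and 6919 in Lin-. Its log2 fold change was -0.12, and the groups overlapped.

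On the small subunit, Rps19, the gene most often mutated in Diamond-Blackfan anaemia, stood at 5141, 5137 and 5949 in Lym, against 5927, 4661 and 5243 in Lin-. The highest values were those of Lym mouse 87 and Lin- mouse 56, and the log2 fold change was 0.04. Rps14, whose loss of one copy is tied to the anaemia of a myelodysplastic syndrome, had 3878, 3565 and 3997 in Lym and 4740, 3745 and 3872 in Lin-, with an estimate of -0.10. Rpsa, a small-subunit protein also known as the laminin receptor precursor, had 25174, 26348 and 26714 in Lym and 31611, 23920 and 25943 in Lin-. Its log2 fold change was -0.05, and Lin- mice 56 and 57 were its highest and lowest library.

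Between the groups, 4 of the 83 tested members did not overlap, against 15.6% of all genes tested. Lym was higher in 1, against 8.49%, and lower in 3, against 7.08%. They are named after their values were seen, apart from Rps24, which had the largest positive estimate of the small subunit. Rps24, another Diamond-Blackfan gene, stood at 4856, 4502 and 5080 in Lym, against 4493, 4298 and 4338 in Lin-, with an estimate of 0.14 ± 0.10 (SE) and an adjusted p of 0.649 by limma. Rps16 had 2642, 2739 and 2878 in Lym and 3562, 2930 and 2894 in Lin-. Rps18 had 2897, 3011 and 3486 in Lym and 3794, 3495 and 3518 in Lin-. Rps16 and Rps18, both of the head of the small subunit, therefore lay lower in every Lym library, by gaps that were small beside the spread within a group. Rpl39, at the nascent chain exit tunnel, had 430, 438 and 468 in Lym and 485, 507 and 495 in Lin-. The log2 fold changes of Rps16, Rps18 and Rpl39 were -0.18, -0.21 and -0.16, with adjusted p-values of 0.614, 0.550 and 0.722 by limma.

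Levels between members are compared as CPM per kilobase of the principal transcript, averaged over the 6 libraries. On the large subunit Rpl8, a core protein near the peptidyl transferase centre, was highest at 1852, from 1567 to 2214 over the libraries. Rpl4, which lines the exit tunnel, followed at 1460 (1373 to 1719) and Rplp1 at 1332 (1047 to 1730). The ranges of these neighbours overlapped over the libraries. Within each library Rpl8 lay above Rpl4, and Rplp1 lay above Rpl4 only in Lin- mouse 56. On the small subunit Rps9, known for its part in decoding accuracy, was highest at 919 (844 to 1072). Rps26, a Diamond-Blackfan gene, was also among the highest at 781 (679 to 916). Its range overlapped that of Rps9, which was the higher of the 2 within each library.

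The order of levels depends on the length used and on shared sequence. With the exon-union length of the deposited table, an alternative chosen after the data were seen, Rplp1 stood at 1332, Rpl8 at 1160 and Rpl4 at 1119, and Rps9 and Rps26 at 274 and 345. The lowest of the 76 genes, named after their values were seen, were Rpl24 at 8.86 and Rps10 at 11.6 CPM per kilobase of transcript. Both overlap another annotated gene on the same strand, Rpl24 with Gm28037 over 47.0% of its exon bases and Rps10 with RPS10-NUDT3 over 20.6%, and shared 82.0% and 60.2% of their 38-base words with other genes. The part of such overlap in their low values was not tested. Of the highest, Rpl8 shared 9.21% of its words and Rplp1 68.6%.

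The genes highest per length had overlapping groups. In normalized counts, Rpl8 (chromosome 15, 76904078 to 76906314) had 28017, 31497 and 32494 in Lym and 37274, 30002 and 33272 in Lin-. Rpl4 had 45649, 44707 and 42914 in Lym and 52289, 42710 and 46263 in Lin-. Both were highest in Lin- mouse 56, and their log2 fold changes were -0.13 and -0.08. Rps9 had 13320, 13469 and 14250 in Lym and 15927, 13634 and 13720 in Lin-. Rps26 had 11649, 9586 and 9927 in Lym and 12338, 10893 and 10652 in Lin-. Lin- mouse 56 was again the highest library of both, with log2 fold changes of -0.07 and -0.12.

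Of the protein-coding paralogues tested, Rpl3l and Rps27l differed most between libraries, and Rpl3l most of all tested members. Rpl3l, the striated muscle form of Rpl3, stood at 526, 385 and 12.4 in Lym, against 22.1, 112 and 22.7 in Lin-. Lym mice 62 and 63 stood above every Lin- library and Lym mouse 87 stood below all of them. As a share of Rpl3, Rpl3l came to 2.96%, 2.31% and 0.0764% in Lym and to 0.111%, 0.687% and 0.139% in Lin-. This share and those of paralogues and pseudogenes below are ratios of normalized counts, not corrected for transcript length. The log2 fold change of Rpl3l was 1.81 ± 1.28 (SE) with an adjusted p of 0.627 by limma. Without Lym mouse 87 it was 3.47 with an adjusted p of 0.0133, in a fit that called 9.57% of all genes. Leaving out Lym mouse 62 or Lym mouse 63 moved it to 0.87 or 1.10, with adjusted p-values of 0.929 and 0.880 by limma.

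Rpl3 itself stood at 17761, 16681 and 16208 in Lym, against 19916, 16265 and 16305 in Lin-, so the Rpl3l pattern was not that of its parent. It was not that of its neighbours Rps2, Ndufb10 and Msrb1 either. Rps2, also a member and upstream of Rpl3l on chromosome 17, had 10355, 11258 and 12455 in Lym and 14070, 11194 and 13542 in Lin-. Ndufb10, between Rps2 and Rpl3l, had 1164, 1377 and 2096 in Lym and 2310, 1706 and 2192 in Lin-, and Msrb1, on the other side, had 649, 822 and 740 in Lym and 860, 1012 and 899 in Lin-. Both were lower, not higher, in Lym mice 62 and 63 than in any Lin- library. Of the scarcer genes nearby, Snora78 was higher in every Lym library, at 43.7, 42.5 and 42.9 against 35.3, 23.8 and 26.8 in Lin-. Snhg9 overlapped between the groups. The part of the surrounding locus in the Rpl3l values was not tested.

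Rps27l, a p53 target gene, went the other way in those mice. It stood at 212, 338 and 753 in Lym, against 611, 447 and 517 in Lin-. Lym mice 62 and 63 held the 2 lowest values and Lym mouse 87 the highest. As a share of Rps27 these were 11.9%, 18.5% and 46.7% in Lym and 30.9%, 24.8% and 30.2% in Lin-. Its parent Rps27 had 1785, 1830 and 1613 in Lym and 1981, 1801 and 1709 in Lin-, with 98.7% of its 38-base words shared with other genes. The log2 fold change of Rps27l was -0.46 ± 0.40 (SE) with an adjusted p of 0.694 by limma, and -0.95 with an adjusted p of 0.0413 without Lym mouse 87. Without Lym mouse 62 it was -0.046 with an adjusted p of 0.992.

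**Figure D5:**
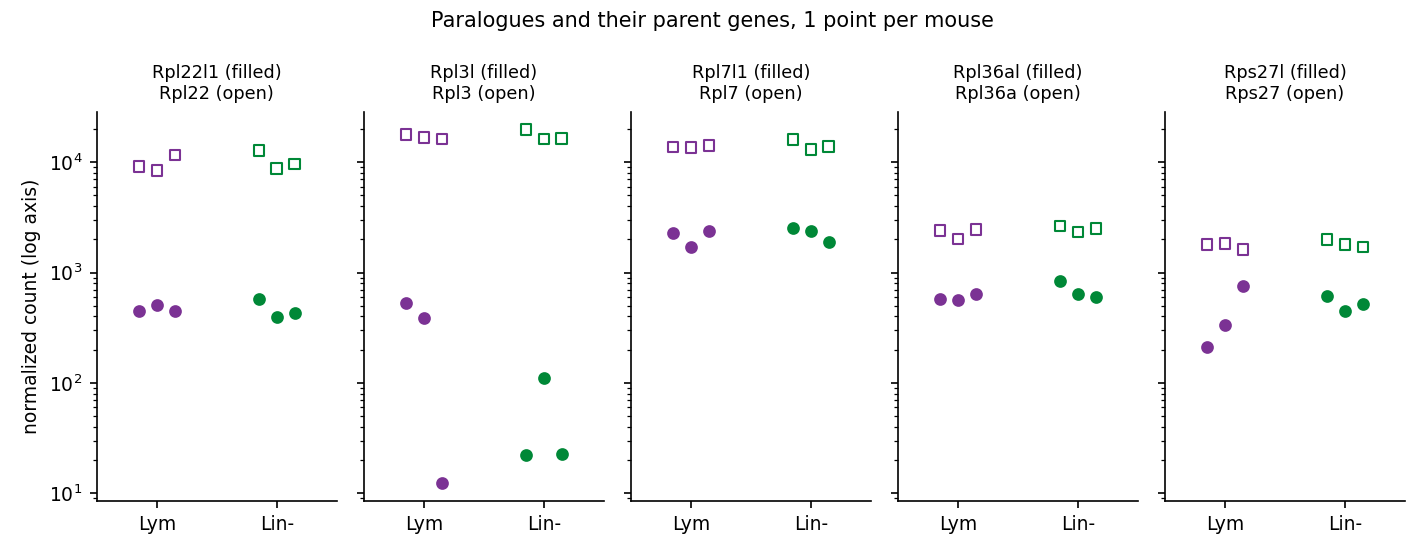
Normalized counts (y axis, log scale) of 5 paralogues (filled circles) and their parent genes (open squares) in the Lym (purple, left to right mice 62, 63 and 87) and Lin- (green, mice 56, 57 and 91) libraries. Rpl3l spans 12.4 to 526 and Rps27l 212 to 753, and each is split within Lym. All 5 paralogues and their parents overlap between the groups.

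The normalized counts of Rpl22l1, the paralogue of the RNA-binding large-subunit protein Rpl22, were 3.85% to 6.01% of those of Rpl22 in every library. Per kilobase of transcript, averaged over the libraries, Rpl22l1 stood at 41.6 CPM and Rpl22 at 241. Rpl22l1 stood at 451, 508 and 448 in Lym, against 573, 394 and 433 in Lin-. Rpl22 had 9089, 8458 and 11620 in Lym and 12688, 8792 and 9632 in Lin-. The share was 4.96%, 6.01% and 3.85% in Lym and 4.52%, 4.48% and 4.50% in Lin-. The Lin- libraries lay close together and the Lym libraries spread on both sides of them. The log2 fold changes were 0.02 ± 0.19 for Rpl22l1 and -0.09 ± 0.17 (SE) for Rpl22. Rpl22l1 shared 69.3% of its 38-base words with other genes and Rpl22 shared 7.80%.

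Rpl7l1, a relative of Rpl7, stood at 2278, 1709 and 2368 in Lym, against 2550, 2395 and 1872 in Lin-. By normalized count this was 12.5% to 18.3% of Rpl7, which had 13729, 13622 and 14100 in Lym and 16056, 13082 and 13890 in Lin-. Per kilobase of transcript, averaged over the libraries, Rpl7l1 stood at 41.4 CPM and Rpl7 at 594. Rpl36al, a close copy of Rpl36a with 87.9% of coding bases identical, had 573, 563 and 640 in Lym and 842, 634 and 606 in Lin-. This was 23.9% to 31.8% of Rpl36a, which had 2402, 2015 and 2449 in Lym and 2647, 2328 and 2508 in Lin-. All 4 overlapped between the groups.

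The testis paralogues were scarce. Rpl10l was listed at 34.8 in Lym mouse 62 and at 0 in the other 5 libraries, and Rpl39l at 0.882, which is 1 read, in Lin- mouse 56 and at 0 in the others. A count of 0 allows up to 3 reads, or 2.64 to 3.36 normalized counts, and this covers counting error only. Of the pseudogenes, Rps4l had 1 read in Lin- mouse 91 and none elsewhere, and Rps12l1 had at most 4.76 normalized counts. These 4 did not pass the filter. Rpl32l had 4.49, 15.7 and 14.3 in Lym and 12.4, 22.0 and 17.5 in Lin-, the most negative estimate of the large subunit at -0.62 ± 0.59 (SE). Rpl6l had 4.49, 8.95 and 23.8 in Lym and 15.9, 12.3 and 9.28 in Lin-. Both were under 0.3% of their parents Rpl32 and Rpl6, whose normalized counts ran from 8308 to 9901 and from 10935 to 13755.

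Other members also showed a split within Lym, and 2 of them, Rpl41 and Rpl13a, are described after their values were seen. Rpl41, which encodes the smallest ribosomal protein, stood at 2797, 3241 and 5831 in Lym, against 5319, 4525 and 4940 in Lin-. Lym mice 62 and 63 were the lowest and Lym mouse 87 was the highest. Its log2 fold change was -0.39 ± 0.25 (SE), with an adjusted p of 0.589 by limma with all 6 libraries and -0.71 with an adjusted p of 0.0110 without Lym mouse 87. Without Lym mouse 62 it was -0.18 with an adjusted p of 0.914. Rpl13a had 784, 855 and 1394 in Lym and 1407, 999 and 1283 in Lin-, with an estimate of -0.32. Its value in Lym mouse 87 lay just below that in Lin- mouse 56. Rps10, Rps23, Rps27a and Rpl27a are also named here after their values were seen. In these as well, Lym mice 62 and 63 were the lowest and Lym mouse 87 the highest. Lym mouse 87 was the highest library in 12 of the 83 tested members, against 2305 of the 14273 genes tested. The whole split was not counted over all genes. Without Lym mouse 87, limma called Rpl3l as higher and Rpl41 and Rps27l as lower in Lym, 3 of 83 against 9.57% of all genes tested, and 1 member was higher and 12 were lower at an unadjusted p under 0.05, against 25.9% of all genes in either direction.

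Rps3a1, Fau and Rack1, which the name rule misses, all had overlapping groups. Rps3a1, on the small subunit, stood at 8971, 8576 and 7618 in Lym, against 9501, 7969 and 7673 in Lin-. Fau, which encodes a ribosomal protein fused to a ubiquitin-like protein, had a log2 fold change of -0.13, as had Rack1, a signalling scaffold bound to the small subunit. None of the 3 was called by limma, with adjusted p-values of 0.993 for Rps3a1, 0.744 for Fau and 0.721 for Rack1.

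Other genes of the pathway were not called either. Of 42 ribosome biogenesis genes tested, 0 were called by limma, against 0.0% of all genes tested, and 1, the export adaptor Nmd3, had an unadjusted p under 0.05, against 10.2%. Of these genes, 34 had a log2 fold change below 0, against 51.3% of all genes, with a median of -0.13. The median was -0.085 without Lym mouse 62, -0.055 (27 below 0) without Lym mouse 63, -0.073 (30 below 0) without Lin- mouse 56 and -0.20 without Lym mouse 87. In that last fit 1 was called, against 9.57% of all genes. At an unadjusted p under 0.05, 16 were lower, against 25.9% of all genes in either direction. Nmd3 stood at 856, 825 and 881 in Lym, against 978, 1119 and 1121 in Lin-, with an estimate of -0.33 ± 0.13 (SE) and an adjusted p of 0.463 by limma. Npm1, the nucleolar chaperone mutated in myeloid leukaemia, had 14454, 12822 and 17480 in Lym and 22426, 16755 and 17597 in Lin-, which overlapped. Of 33 translation factors, 0 were called and 27 were below 0, with a median of -0.12, and without Lin- mouse 56 the number below 0 was 18, with a median of -0.060. Without Lym mouse 87, 2 were called, in the fit that called 9.57% of all genes. There 11 were lower at an unadjusted p under 0.05, against 25.9% of all genes in either direction. Eif5a, an elongation factor, had the lowest estimate of the translation factors named by smallest p, at -0.41 with an adjusted p of 0.524 by limma. Of 12 host genes of small nucleolar RNAs, many with the same pyrimidine start, 10 were tested, 7 were below 0 and 3 above, with a median of -0.03. Without Lym mouse 63 that split was 3 below and 7 above, and leaving out 1 mouse moved the median to between -0.11 and 0.045. Snhg1 had 842, 703 and 930 in Lym and 933, 1251 and 1147 in Lin-, with an adjusted p of 0.462 by limma.

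Start sites of the members often carried the letters known for this gene class. RefSeq (GRCm38.p6) gave 75 starts for 63 of the 83 protein-coding members. A run of at least 8 pyrimidines (C or T, sense strand) lay within 50 bases of the start at 78.7% of these, against 35.7% of 32851 starts of all genes. From 250 bases before to 50 after the start, on either strand, CCGGAAGT occurred at 12 of the 75 member starts against 3.89% of all, and CACGTG at 8 of 75, or 10.7%, against 7.15%. A match is a description of the letters and not a site. 3 windows of 30 bases with the run in capitals are shown because the run begins within 2 bases of the annotated start: Rps18 (chr17:33955648-33955677, minus strand), Rps27 (chr3:90213632-90213661, minus strand) and Rpl22l1 (chr3:28805499-28805528, plus strand).
Rps18: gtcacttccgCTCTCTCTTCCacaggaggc
Rps27: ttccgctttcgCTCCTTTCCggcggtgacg
Rpl22l1: cgcaagcccgTTCTCTTCCCacggctgcag
The runs are 11, 9 and 10 bases long. Of these 3 genes, Rps18 had groups that did not overlap, and none was called.

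Marker genes of other cells were read beside these values. Of 8 erythroid markers, 6, among them all 4 globin genes, were listed at 0 in all libraries, and the summed level was at most 0.884 CPM. Neutrophil markers summed to 2374 to 2681 CPM in Lym and to 3004 to 6163 in Lin-, with Lin- mouse 57 highest, and monocyte markers to 523 to 695 in Lym and 778 to 844 in Lin-. B cell markers summed to only 2.75 to 21.2 CPM in Lym and 2.83 to 21.0 in Lin-, so the label lymphoid was not matched by a higher level of these 8 genes, which include Pax5 and Ebf1. T and NK cell markers summed to 12.5, 2.32 and 0.656 CPM in Lym and to at most 0.937 in Lin-. Megakaryocyte markers, of which Ppbp was listed at 0 in all libraries, summed to 26.3, 10.6 and 2.30 CPM in Lym and to 0.901 to 2.36 in Lin-. The progenitor genes Kit, Cd34, Flt3, Hoxa9 and Meis1 summed to 3653, 3623 and 2440 in Lym and 1860 to 2503 in Lin-. Lym mice 62 and 63 thus stood above Lym mouse 87 in the progenitor, megakaryocyte and T and NK cell sums. In the last 2 of these sums, Lym mouse 63 was itself well below Lym mouse 62. In the erythroid, neutrophil, monocyte and B cell sums, Lym mouse 87 lay between Lym mice 62 and 63. The part of cell makeup in the values of Rpl3l, Rps27l and Rpl41 was not tested.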

How the data were processed

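The 87 members, the gene lists and the tests were chosen with earlier results of these data known. Total RNA was turned into stranded libraries with a low-input kit and 12 PCR cycles, with 38 bases read from each end, per the labels' protocols. The authors trimmed reads with Trim Galore (0.6.4), aligned them with STAR (2.6.1d) to GRCm38.p6 and counted them with featureCounts (1.6.4) before DESeq2, per the submitters' processing notes. The annotation release and the handling of strand and shared reads are not given in the sources used here. The signal deposited for each library is the authors' read count of a gene over that library's size factor. These values were whole multiples of 1 read for 100% of values up to 10000 (tolerance 0.01), so reads were recovered. Per the file headers, the authors' log2 fold change, with a Wald score and its p-value, is also deposited. It is positive where Lin- is higher, and signs were turned here.

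The test was limma 3.58.1 in R 4.3.3, with its trend option and a pseudocount of 2, and p-values were adjusted over all genes tested. Alternatives were edgeR 4.0.16, DESeq2 1.42.0, limma-voom, TMM scaling, library weights, pseudocounts of 0.5 and 8, other filters and leaving out each mouse. Sums and shares were given with no test. Transcripts and positions are from GENCODE M21, and start sites from RefSeq. Named genes are the 3 highest per length in each subunit, all paralogues with their parents, members below the filter, the largest estimates of each subunit and 9 genes chosen by role. Rps2 is named as a neighbour of Rpl3l. Other members named besides these are said to be chosen after their values were seen. A few items under the naming rule are not reported here.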

Additional observations from a re-analysis of the deposited data

How the results depend on the processing

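Under TMM scaling, edgeR, DESeq2, limma-voom, both pseudocounts and both filters, 0 members were called and 0 had an unadjusted p under 0.05, and the median log2 fold change stayed between -0.11 and -0.09. With library weights, 0 were called, and 1 member was higher and 9 were lower at an unadjusted p under 0.05, where 26.3% of all genes were. Leaving out each mouse gave 0 to 1 called member higher and 0 to 2 lower in Lym, and 0 to 1 higher and 0 to 12 lower at an unadjusted p under 0.05. The largest counts all came without Lym mouse 87, where 9.57% of all genes were called and 25.9% had an unadjusted p under 0.05. The number of members below 0 was 43 at the lowest, when Lin- mouse 56 was left out, and 80 at the highest, when Lin- mouse 57 was, and the median ran from -0.15 to -0.001. The ratio of summed levels ran from 0.873 to 0.984 when a mouse was left out and from 0.910 to 0.937 with other denominators or added genes. No paired analysis was possible because the groups share no replicate numbers.

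Estimates near 0 changed sign in single settings. When each mouse was left out, they ran from -0.090 to 0.18 for Rpl22l1, -0.22 to 0.066 for Rpl22, -0.095 to 0.051 for Rpl3, -0.24 to 0.044 for Rpl7l1, -0.11 to 0.035 for Rpl7, -0.76 to 0.24 for Rpl6l, -0.12 to 0.026 for Rplp2, -0.14 to 0.066 for Rpsa, -0.047 to 0.13 for Rps19 and -0.17 to 0.00047 for Rps14. Rps19 was at -0.0074 with library weights and Rpl6l at 3.0e-06 with edgeR. The cause was not tested. With 3 mice a group and a median standard error of 0.14, differences of the size of most members' estimates were not detectable here.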

Other observations

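Mitochondrial ribosomal proteins, which translate the mitochondrial genome and are encoded by other nuclear genes than the cytosolic members, leaned further toward Lin-. Of 78 genes, 77 were tested by limma, 0 were called at an adjusted p of 0.05, against 0.0% of all genes tested, and 74 had a log2 fold change below 0, against 51.3%. At an unadjusted p under 0.05, 8 were lower in Lym and none higher, against 10.2% of all genes in either direction, and 12 had groups that did not overlap with Lym lower, against 7.08% of all genes tested. The median was -0.27, beside -0.09 for the cytosolic members, and this difference between the lists was not tested. Mrpl3, a large-subunit protein, stood at 849, 890 and 1017 (normalized) in Lym and 1240, 1133 and 1275 in Lin-, with an estimate of -0.41 ± 0.13 (SE) with an adjusted p of 0.441 by limma. Without Lin- mouse 56 the split was 67 below 0 of 77 with a median of -0.21, where the cytosolic members had 43 of 83 below 0. At an unadjusted p under 0.05, the number lower in Lym was 1 without Lym mouse 62, 1 without Lym mouse 63 and 36 without Lym mouse 87, the setting in which 13 were called. In that setting 25.9% of all genes had an unadjusted p under 0.05 in either direction and 9.57% were called.

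Rows with an Rps or Rpl name that holds the pseudogene mark -ps, 298 in the table, together held 322 to 435 CPM. They were again highest in Lin- mouse 56, against 25637 CPM or more on the 87 members. Ribosomal protein pseudogenes under other names, such as Gm10288, are not in this sum, so it does not give the reads on all such pseudogenes.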
